A study of Mus musculus with 60 samples.

Results

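Cancer-associated fibroblasts (CAFs) of the mouse were aggregated with 344SQ lung cancer cells that carried an shRNA labelled shZEB1 or a control shRNA labelled shCTL, then enriched by flow sorting and sequenced. The comparison rests on 6 of the 60 samples of the series, 3 libraries of each group, and its members are all 48440 genes of their count table. The other 54 samples are CAFs alone, with unmodified 344SQ cells or with 393P cells, of which 9 were grown as aggregates and 45 in Boyden chambers, where a membrane keeps the cell types apart; they were used only for comparison.

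All 6 cultures held 344SQ cells and an shRNA, so no library shows CAFs without cancer cells or without an shRNA. The labels call the fibroblasts tCAFs and number the samples of each group as biological replicates 1 to 3, without saying what was separate between them. How many shRNA constructs or 344SQ clones were used is not given in the sources used here. The Zeb1 level of the cancer cells was not measured on its own in these libraries, which come from the sorted CAFs, so the knockdown itself could not be checked.

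344SQ is a metastatic line derived from mouse lung adenocarcinoma, and 393P is a related line that is epithelial and rarely metastasises. Zeb1 is a zinc finger transcription factor that represses epithelial genes such as Cdh1 and drives epithelial-mesenchymal transition (EMT) of cancer cells. CAFs take on different states under signals from cancer cells. A contractile, myofibroblast-like state is known by smooth muscle actin (Acta2) and its partners, and an inflammatory state by cytokines, chemokines and acute phase proteins, many of them targets of NF-kB. The comparison asks how the state of the CAFs differs when the cancer cells next to them carry the Zeb1 shRNA.

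The libraries held 739530 to 2144803 counts and differed in more than the shRNA label. The mitochondrial share of counts was 40.8%, 36.2% and 26.1% in shCTL replicates 1 to 3, and 27.6%, 25.6% and 23.5% in shZEB1 replicates 1 to 3. Summed over 26 carcinoma epithelial markers, the level in CPM (counts divided by the library total and scaled to a common size) was 172, 128 and 1795 in the shCTL libraries and 155, 1375 and 742 in the shZEB1 libraries. Cdh1, the epithelial cadherin, had 30, 20 and 751 counts against 24, 394 and 153, and the keratin gene Krt8 had 3, 2 and 165 counts against 11, 25 and 216, while Epcam, another defining marker, had 0 to 4 counts. Without Sftpc, a surfactant gene, the sums were 79.0, 52.8 and 1686 against 53.2, 1232 and 726 CPM. Thus 3 libraries, shCTL replicate 3 and shZEB1 replicates 2 and 3, were rich in carcinoma markers. Fibroblast markers were counted in all 6 libraries, with Fn1 (fibronectin) as the highest, but their sum was lowest in shCTL replicate 3, at 4561 CPM against 13452 and 14972 in the other shCTL libraries and 26417, 14413 and 15683 in the shZEB1 libraries.

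Markers of other cell types also differed between libraries. Xist, the RNA of the inactive X chromosome, was counted 18 times in each of shCTL replicates 1 and 2 but at most 2 times in any other library, while the Y-linked gene Ddx3y was counted in all 6, at 7 to 44. Endothelial markers summed to 1076 CPM in shZEB1 replicate 1 almost entirely through Flt1, with 2259 counts, against 84.0 to 206 CPM elsewhere. Macrophage markers summed to 44.5 to 178 CPM, with Cd68 at 13 to 106 counts and Lyz2 at 4 to 51. Their members with too few counts to test had at most 67, with Adgre1, C1qa, C1qb and C1qc at 0. Lymphocyte markers summed to at most 2.54 CPM and erythroid markers to at most 1.35 CPM. Neutrophil markers summed to 17.4, 42.6 and 1.02 CPM against 0.932, 1.35 and 82.9 CPM, with S100a9 and Ly6g at 0 counts. Among them S100a8 had 27, 67 and 1 counts in the shCTL libraries against 0, 0 and 107. Log2 levels correlated at 0.58 to 0.79 between pairs of libraries, and shCTL replicate 3 was in the lowest pair. The 6 libraries also shared alveolar and mural genes that the 9 libraries of the aggregate table lacked: Sftpb had 101 to 208 counts against 0 to 1, and Rgs5 had 69 to 341 counts against 0 to 1. These genes, chosen after their values were seen, set the 6 libraries apart from the other aggregates but not shZEB1 from shCTL.

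**Figure D1:**
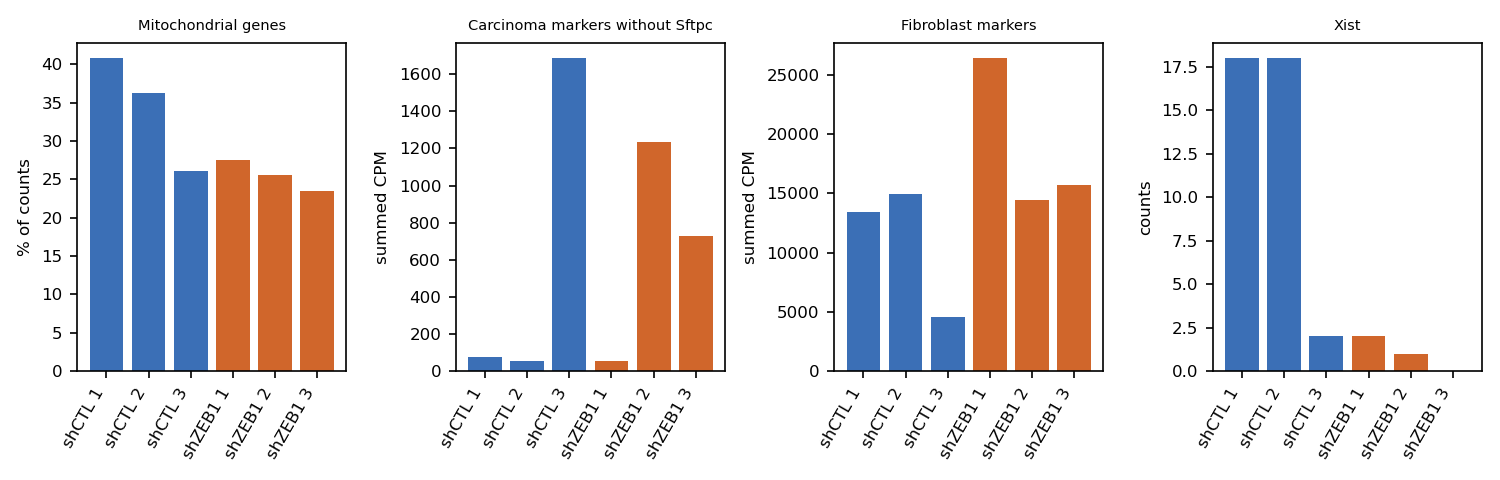
Bars give, for each of the 6 libraries on the horizontal axes, the mitochondrial share of counts (%), the summed level of carcinoma markers without Sftpc (CPM of the library total), the summed level of fibroblast markers (CPM) and the Xist counts, with shCTL in blue and shZEB1 in orange. The carcinoma sums are high in shCTL 3, shZEB1 2 and shZEB1 3, and the mitochondrial share and Xist are highest in shCTL 1 and 2.

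In the CAFs with shZEB1 cells, mRNAs of several secreted inflammatory and matrix-degrading proteins (Lcn2, Mmp13, Mmp10, Cxcl1) stood lower, and those of contractile proteins (Acta2, Tagln, Cald1) and of the hyaluronan-degrading protein Cemip higher, in all 3 libraries than in any shCTL library. The replicates were far apart, and no gene passed the test over all genes. Of 7801 genes with enough counts, edgeR's quasi-likelihood test called 0 (0%) at an adjusted p under 0.05, the smallest adjusted p being 0.384, while 466 (5.97%) had an unadjusted p under 0.05. DESeq2 called 27 of 9329 genes (0.289%), 14 higher (0.15%) and 13 lower (0.139%), and limma-voom with sample quality weights called 1 of 7801 (0.0128%), Mmp13. Of the 27 genes, 15 were among those edgeR tested. The 3 libraries of one group lay wholly above or below the other 3 for 910 genes (11.7%), 482 higher (6.18%) and 428 lower (5.49%) with shZEB1. With any 1 library left out, 1532 to 1871 genes met this looser rule of 3 libraries against 2. The biological coefficient of variation between replicates was 61.7%, against 16.2% in the aggregate table and 8.58% in the Boyden table. Differences below are therefore given as values, in CPM scaled by TMM (trimmed mean of M-values) for single genes and as log2 changes of shZEB1 minus shCTL with their standard errors (SE). In bulk libraries, fewer cells of a type and less RNA per cell cannot be told apart.

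The genes lowest with shZEB1 by p were Lcn2 and Mmp13. Their promoters and those of Mmp10 and Cxcl1 are shown here because these genes lay lower without overlap. Saa3 was added after its values were seen, although its groups overlapped. The sequences are RefSeq's (GRCm38.p6), 300 bases each, 250 before and 50 after the start of transcription, read 5′ to 3′ on the gene's strand. Capitals mark letters that match the AP-1 site TGANTCA, the C/EBP site TTGCNNAA or the NF-kB site, on either strand. Mmp13 lies at chr9:7272264-7272563 (plus strand), Mmp10 at chr9:7502092-7502391 (plus strand), Lcn2 at chr2:32387690-32387989 (minus strand), Saa3 at chr7:46715627-46715926 (minus strand) and Cxcl1 at chr5:90890995-90891294 (plus strand).
Mmp13: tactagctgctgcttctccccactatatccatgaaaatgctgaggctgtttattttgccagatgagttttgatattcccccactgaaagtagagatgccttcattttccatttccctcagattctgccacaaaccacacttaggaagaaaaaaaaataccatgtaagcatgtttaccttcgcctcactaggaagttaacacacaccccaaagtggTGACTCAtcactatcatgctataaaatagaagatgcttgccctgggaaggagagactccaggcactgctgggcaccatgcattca
Mmp10: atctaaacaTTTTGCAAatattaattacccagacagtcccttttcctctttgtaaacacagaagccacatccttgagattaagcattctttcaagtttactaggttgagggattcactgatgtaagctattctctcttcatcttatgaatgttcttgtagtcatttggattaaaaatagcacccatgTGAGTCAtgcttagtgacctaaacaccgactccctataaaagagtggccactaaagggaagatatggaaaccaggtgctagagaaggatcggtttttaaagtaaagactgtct
Lcn2: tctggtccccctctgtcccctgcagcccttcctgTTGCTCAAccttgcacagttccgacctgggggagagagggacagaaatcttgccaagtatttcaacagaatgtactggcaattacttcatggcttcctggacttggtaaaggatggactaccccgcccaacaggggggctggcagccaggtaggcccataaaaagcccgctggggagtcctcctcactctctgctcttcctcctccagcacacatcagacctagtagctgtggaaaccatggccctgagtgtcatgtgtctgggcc
Saa3: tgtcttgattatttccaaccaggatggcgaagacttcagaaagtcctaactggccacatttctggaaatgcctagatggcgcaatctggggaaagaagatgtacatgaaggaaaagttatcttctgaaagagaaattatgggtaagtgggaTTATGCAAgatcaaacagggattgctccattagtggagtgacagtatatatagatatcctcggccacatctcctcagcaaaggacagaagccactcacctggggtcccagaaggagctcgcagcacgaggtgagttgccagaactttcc
Cxcl1: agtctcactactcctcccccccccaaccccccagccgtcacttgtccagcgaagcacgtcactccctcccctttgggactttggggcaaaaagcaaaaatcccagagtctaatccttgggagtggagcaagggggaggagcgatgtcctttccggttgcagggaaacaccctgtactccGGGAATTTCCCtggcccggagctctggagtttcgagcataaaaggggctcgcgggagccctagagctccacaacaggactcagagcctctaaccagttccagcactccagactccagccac
The Mmp13 and Mmp10 windows each held an AP-1 match, with its first base at -35 and -63 from the start. Lcn2, Saa3 and Mmp10 held a C/EBP match, at -216, -99 and -241. Cxcl1 held a pair of overlapping NF-kB matches, at -71 and -70. Of 32851 promoters in the table, 7.81% held an AP-1 match, 10.8% a C/EBP match, 8.46% an NF-kB match and 1.63% a CArG box, the site of serum response factor. Of the other genes scanned, Cp held an AP-1 match in 1 of its 2 windows and a C/EBP match in the other, Ptgs2 held a C/EBP match, and Cald1, which lay higher with shZEB1, held an AP-1 match in 1 of its 2 windows. No exact match to any of these 4 motifs was found in the windows of Acta2, Cemip, Tnc, Cxcl12, Timp3, Icam1 or Vegfd. The CArG box was sought as CCWWWWWWGG (W is A or T) and the NF-kB site as GGGRNNYYCC (R is A or G, Y is C or T). Sites that vary from these letters were not counted, so a window without a match may still hold one. A match is a run of letters and was not tested for binding.

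Acute phase genes were among the lowest with shZEB1. Lcn2 (chr2:32384633-32388252 in GRCm38), which encodes the iron-siderophore carrier lipocalin-2, stood at 65.6, 297 and 142 CPM in shCTL replicates 1 to 3 and at 3.95, 11.7 and 17.9 CPM in shZEB1 replicates 1 to 3. All shZEB1 libraries lay below all shCTL libraries, and the means were 168 ± 118 and 11.2 ± 7.01 CPM (SD, n = 3 each). The log2 change was -3.92 (SE 0.72, edgeR adjusted p = 0.384, DESeq2 adjusted p = 0.000324). With the carcinoma marker level as a covariate the log2 change of Lcn2 was -4.00, and with the mitochondrial share as a covariate -4.51.

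Saa3, a serum amyloid A gene named after its values were seen, behaved differently. It stood at 387, 1126 and 28.0 CPM with shCTL and at 60.1, 8.80 and 21.1 CPM with shZEB1, so the groups overlapped. Its log2 change of -4.05 (SE 0.98, edgeR adjusted p = 0.686) came from shCTL replicates 1 and 2, the libraries with the most Xist counts, and was 0.25 without them. Cp (ceruloplasmin, a copper-carrying ferroxidase) stood at 128, 135 and 59.96 CPM with shCTL and at 34.2, 30.8 and 35.9 CPM with shZEB1, a log2 change of -1.67 (SE 0.53, edgeR adjusted p = 0.725) that was -0.71 without those 2 libraries. Of the acute phase list's 14 genes 5 were tested, 4 of them below 0, and their median log2 change was -1.67, against -0.02 over all genes tested. That median was -0.49 with the mitochondrial share as a covariate, and it turned to 0.25 without shCTL replicates 1 and 2. C3, the central complement component, overlapped between the groups (505, 402 and 136 CPM against 194, 161 and 217 CPM).

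Collagenase and stromelysin genes were low with shZEB1 too. Mmp13 (chr9:7272514-7283331), a collagenase of fibrillar collagen, stood at 495, 1122 and 209 CPM with shCTL and at 4.39, 66.0 and 5.77 CPM with shZEB1. The groups did not overlap, although shZEB1 replicate 2 stood well above the other 2 shZEB1 libraries. The log2 change was -4.70 (SE 0.96, edgeR adjusted p = 0.565, DESeq2 adjusted p = 0.000324, limma-voom adjusted p = 0.00597). Mmp10 (chr9:7502352-7510240), a stromelysin, stood at 152, 168 and 54.2 CPM with shCTL and at 3.51, 1.47 and 28.8 CPM with shZEB1. Its log2 change was -3.41 (SE 0.86, edgeR adjusted p = 0.686, DESeq2 adjusted p = 0.0345), again with no overlap. Mmp3, the neighbouring stromelysin gene, had a log2 change of -2.87 (SE 0.94) but overlapped, since shCTL replicate 3 stood at 18.4 CPM against 241 and 505 CPM in the other 2.

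Other proteases of the list did not share this difference. The membrane collagenase Mmp14 had a log2 change of -0.30 (SE 0.56) and the gelatinase Mmp9 of -0.19 (SE 0.89), both overlapping. Timp3, an inhibitor of metalloproteinases, was higher in all shZEB1 libraries, at 1839, 2696 and 1121 CPM against 840, 953 and 278 CPM with shCTL (log2 change 1.45, SE 0.50, edgeR adjusted p = 0.773). Timp3 lies inside Syn3 on the opposite strand, and Syn3, a synapsin gene, had a log2 change of 2.11 (SE 0.48); without the strand setting of the counting, their reads cannot be told apart. Of 19 genes in the list of metalloproteinases and TIMPs 11 were tested, 7 below 0 with a median of -0.30. The groups did not overlap for 2 lower and 1 higher, where 5.49% of all genes tested lay lower and 6.18% higher without overlap. The list's median turned to 0.54 with the mitochondrial share as a covariate and to 1.03 without shCTL replicates 1 and 2, where the median over all genes tested was 0.10 and 0.26.

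**Figure D2:**
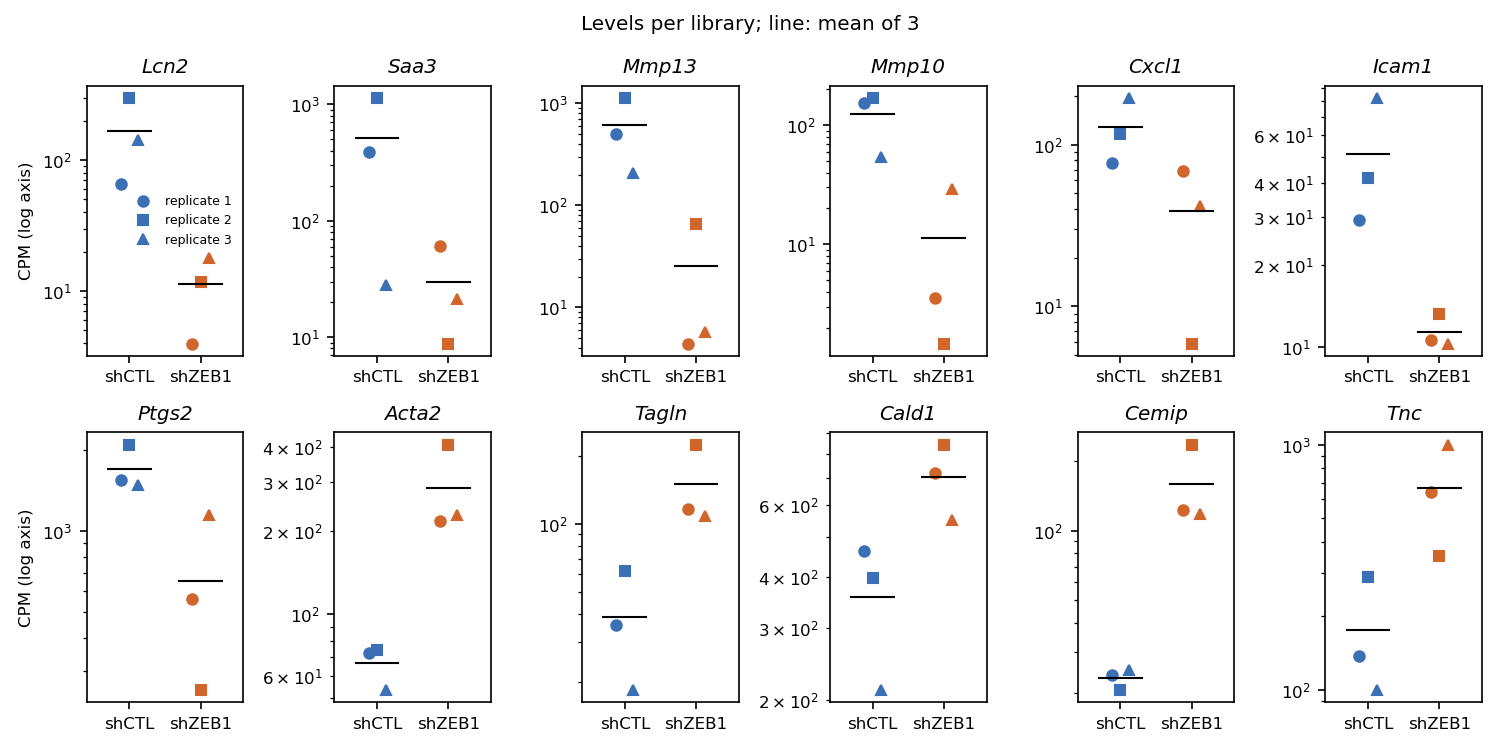
Each panel gives 1 gene, with its level per library in TMM-scaled CPM on a log axis, the 2 groups on the horizontal axis, markers for replicates 1 to 3 and a line at the mean of 3 libraries. The shZEB1 points lie below every shCTL point for Lcn2, Mmp13, Mmp10, Cxcl1, Icam1 and Ptgs2 and above every one for Acta2, Tagln, Cald1, Cemip and Tnc, while Saa3 overlaps.

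NF-kB targets lay mostly low. Of the 20 genes in the list of NF-kB feedback genes and targets 19 were tested, and 14 of them had a log2 change below 0, with a median of -0.77; of all genes tested, 3964 of 7801 were below 0. Icam1, an adhesion receptor for leukocytes, stood at 29.4, 41.8 and 82.2 CPM with shCTL and at 10.5, 13.2 and 10.3 CPM with shZEB1 (log2 change -2.17, SE 0.71, edgeR adjusted p = 0.733). Vcam1, a second adhesion receptor, stood at 328, 292 and 325 CPM against 107, 202 and 103 CPM (-1.20, SE 0.44, edgeR adjusted p = 0.782). Nfkbiz, which encodes a nuclear cofactor of NF-kB, stood at 198, 115 and 207 CPM against 75.5, 74.8 and 60.9 CPM (-1.30, SE 0.45, edgeR adjusted p = 0.773). These were the 3 members of the list whose groups did not overlap, all lower, where 5.49% of all genes tested lay lower without overlap. The inhibitor gene Nfkbia had a log2 change of -0.28 (SE 0.46) and Tnfaip3 of -0.97 (SE 0.62), both overlapping. The list's median was -0.37 without shCTL replicate 3, the carcinoma-rich control, and -0.23 without shCTL replicates 1 and 2.

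Chemokine, cytokine and prostaglandin genes differed among themselves. Cxcl1, a neutrophil chemokine, stood at 77.2, 116 and 193 CPM with shCTL and at 68.9, 5.87 and 41.6 CPM with shZEB1. The gap between the lowest shCTL and the highest shZEB1 library was narrow, and the log2 change was -1.69 (SE 0.68, edgeR adjusted p = 0.799). It was -0.47 without the 3 carcinoma-rich libraries. Ptgs2, the inducible cyclooxygenase that makes prostaglandins, stood at 1546, 2096 and 1481 CPM against 557, 255 and 1144 CPM, with no overlap (log2 change -1.39, SE 0.50, edgeR adjusted p = 0.782). Of the prostaglandin list's 11 genes 6 were tested, with a median of -0.69. Il6, the cytokine used to mark inflammatory CAFs, was low and overlapped, at 24.6, 32.3 and 14.5 CPM against 17.6, 0 and 16.7 CPM (log2 change -0.996, SE 0.95, edgeR adjusted p = 0.870). Il6st, its signalling receptor, had a log2 change of 0.60 and Stat3 of 0.21, and the 11 genes tested of the IL-6 and IL-1 family had a median of 0.43.

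Cxcl12, a lymphocyte attractant made by fibroblasts, went the other way from Cxcl1. It stood at 182, 147 and 85.1 CPM with shCTL and at 286, 480 and 238 CPM with shZEB1, without overlap (log2 change 1.27, SE 0.46, edgeR adjusted p = 0.787). Of the 7 tested monocyte and lymphocyte attractants it alone had groups that did not overlap, a share near the 11.7% of all genes tested.

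Contractile genes were the list that lay highest with shZEB1. Acta2, smooth muscle actin (chr19:34241090-34255590), stood at 72.4, 74.1 and 53.2 CPM with shCTL and at 216, 408 and 228 CPM with shZEB1, means of 66.6 ± 11.6 and 284 ± 107 CPM (SD, n = 3 each). The lowest shZEB1 library was well above the highest shCTL library. The log2 change was 2.09 (SE 0.46, edgeR adjusted p = 0.666, DESeq2 adjusted p = 0.0307). Tagln (transgelin, an actin-binding protein) stood at 35.5, 62.3 and 18.4 CPM against 116, 224 and 109 CPM (1.94, SE 0.56, edgeR adjusted p = 0.692). Its exons overlap those of Pcsk7 on the opposite strand, a protease gene that lay lower with shZEB1 (log2 change -3.62, SE 0.92), and without the strand setting reads of the shared stretch cannot be assigned to either gene. Cald1 (caldesmon, a regulator of actomyosin) stood at 463, 399 and 212 CPM against 717, 842 and 550 CPM (0.97, SE 0.43), and Cnn2 (calponin 2) had a log2 change of 1.01 (SE 0.51).

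Of 19 contractile genes 16 were tested, 14 of them above 0, with a median log2 change of 0.83 against -0.02 over all genes. The groups did not overlap for 8, all higher, where 6.18% of all genes tested lay higher without overlap: Acta2, Tagln, Cald1, Cnn2, Tpm1, Tpm2, Myl9 and Pdlim7. The exceptions below 0 were Smtn (smoothelin), at -0.71 (SE 0.50), and Vcl (vinculin), at -0.31 (SE 0.42). DESeq2 called 1 of the 16, Acta2. The list's median stayed above 0 under every alternative run. With 1 library left out it was between 0.50, without shZEB1 replicate 2, and 0.95, without shZEB1 replicate 3. Acta2, Tagln, Cald1 and Cnn2 had log2 changes of 2.37, 2.75, 1.75 and 1.49 with the mitochondrial share as a covariate. Without shCTL replicates 1 and 2 these were 2.52, 3.12, 1.84 and 1.64, and without the 3 carcinoma-rich libraries 1.57, 1.26, 0.74 and 0.93. Mural markers had a median of -0.17 over 7 tested genes and summed to 320, 262 and 388 CPM with shCTL and 576, 330 and 244 CPM with shZEB1. Myh11, the smooth muscle myosin, had 0 to 8 counts. Whether mural cells added to the contractile transcripts was not tested.

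Related programmes were less one-sided. Of the 16 tested targets of SRF and YAP, 9 were above 0 with a median of 0.24. Filip1l, Vgll3 and Axl lay higher without overlap while Lats2, a Hippo kinase gene, lay lower, where the shares over all genes tested were 6.18% and 5.49%. Of the 22 tested genes of the TGF-beta response, 13 were above 0 with a median of 0.08. Ltbp1, which binds latent TGF-beta, stood at 228, 258 and 374 CPM against 390, 478 and 415 CPM and lay higher without overlap (log2 change 0.58, SE 0.40, edgeR adjusted p = 0.841).

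Matrix genes gave a few separated members and small medians. Cemip (chr7:83932857-84086502), a hyaluronan-degrading protein, had the smallest p among genes higher with shZEB1. It stood at 23.9, 20.5 and 25.1 CPM with shCTL and at 122, 235 and 118 CPM with shZEB1. The shCTL libraries were close together, and the log2 change was 2.76 (SE 0.52, edgeR adjusted p = 0.384, DESeq2 adjusted p = 0.00183). It was between 2.47 and 2.75 with either covariate or without either set of doubted libraries. Tnc (tenascin-C, a matricellular glycoprotein) stood at 137, 289 and 99.6 CPM against 642, 351 and 999 CPM (1.92, SE 0.52, edgeR adjusted p = 0.692). Lox, the collagen cross-linking lysyl oxidase, stood at 98.4, 51.2 and 34.8 CPM against 145, 224 and 112 CPM (1.37, SE 0.52, edgeR adjusted p = 0.799).

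Fibrillar collagens overlapped between the groups, where 11.7% of all genes tested did not. Col1a1 stood at 599, 928 and 391 CPM with shCTL and at 1277, 1045 and 637 CPM with shZEB1 (log2 change 0.62, SE 0.44, edgeR adjusted p = 0.843), and Col1a2 had a log2 change of 0.78 (SE 0.48). Their list had 7 tested genes, 5 above 0, with a median of 0.44. Other collagens (13 tested) had a median of 0.26, with Col8a1 higher (1.34, SE 0.74) and the basement membrane chain Col4a2 lower (-0.88, SE 0.41) without overlap. Collagen processing enzymes (20 tested) had a median of 0.17, matrix glycoproteins and proteoglycans (31 tested) of 0.07 and hyaluronan turnover genes (5 tested) of 0.02.

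Of 8 EMT transcription factors 5 were tested, and all overlapped between the groups. Over all genes tested 11.7% did not overlap, so 5 genes are too few to read this as a result. As 3 libraries were rich in carcinoma markers, the transcripts need not all come from CAFs. Zeb1 stood at 71.8, 105 and 50.3 CPM with shCTL and at 144, 48.4 and 120 CPM with shZEB1, and the groups overlapped (log2 change 0.47, SE 0.53, edgeR adjusted p = 0.896). Zeb2, its paralogue, stood at 305, 495 and 119 CPM against 373, 178 and 134 CPM (-0.42, SE 0.55, edgeR adjusted p = 0.917). Snai1, Snai2 and Prrx1 had log2 changes of -0.63, -1.01 and -0.63, all with overlap. Zeb2 and Prrx1 turned to 0.85 and 1.25 with the mitochondrial share as a covariate, and to 1.06 and 1.71 without shCTL replicates 1 and 2. Cdh1, which Zeb1 represses, followed the carcinoma-rich libraries of both groups, at 20.5, 15.8 and 726 CPM against 10.5, 578 and 98.0 CPM (log2 change -0.16, SE 1.24), and its direction turned when single libraries were left out.

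**Figure D3:**
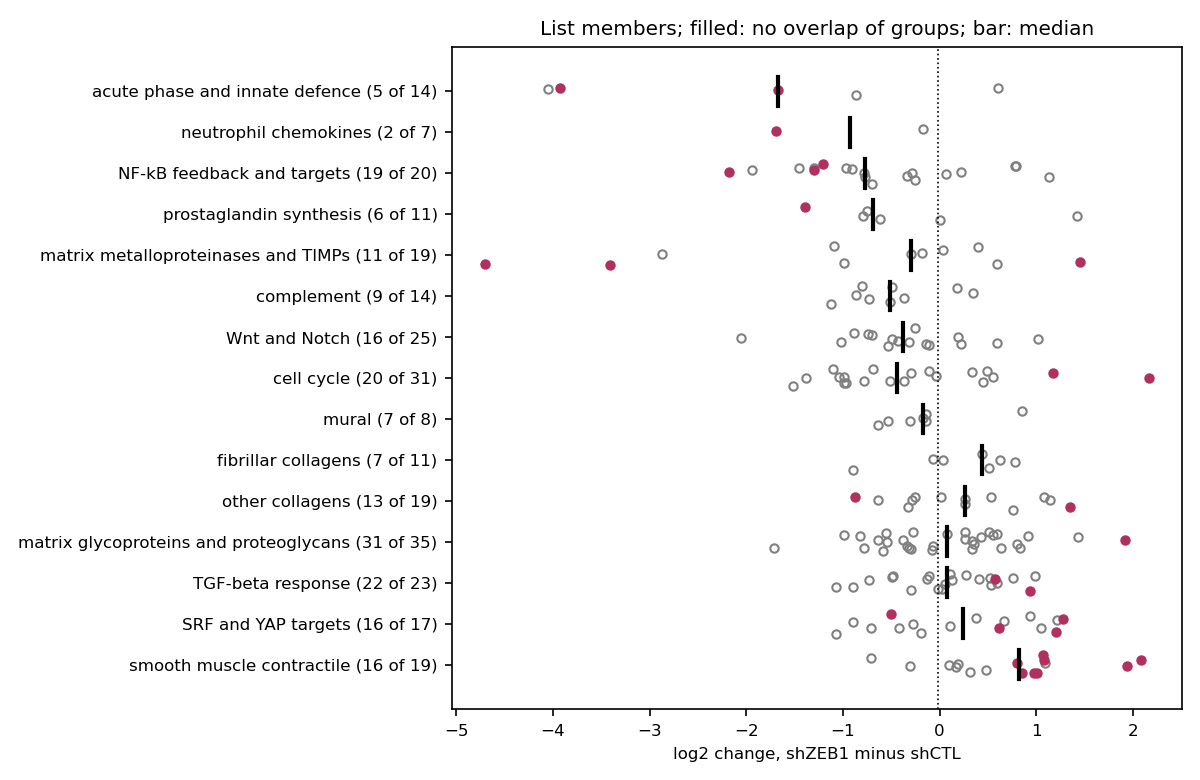
Points give the log2 change of shZEB1 minus shCTL for each tested member of 15 gene lists, with the number tested of the number listed beside each name; filled points mark members whose groups do not overlap, bars the list's median and the dotted line the median of all genes. The contractile genes have 8 filled points, all above 0, and the NF-kB list has 3, all below 0, where 6.18% of all genes tested lay higher and 5.49% lower without overlap.

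Signalling and growth factor genes were mixed. Figf (now Vegfd), a lymphangiogenic growth factor, stood at 13.0, 9.46 and 7.74 CPM with shCTL and at 68.5, 85.1 and 42.3 CPM with shZEB1 (log2 change 2.68, SE 0.67, edgeR adjusted p = 0.686, DESeq2 adjusted p = 0.0307). The other 22 tested growth factor and BMP genes left the list's median at 0.03. Wnt and Notch genes lay mostly low, 12 of 16 below 0 with a median of -0.38. None separated the groups, where 11.7% of all genes tested did, so few would at that share. Notch1 had a log2 change of -0.53 and Notch2 of 0.19. Complement genes (9 tested, 7 below 0) had a median of -0.51 with no member separated, again beside 11.7% of all genes tested. Interferon response genes had 4 tested of 27, with a median of 0.53. Ddx58, an RNA sensor, scattered in both groups, at 23.9, 30.7 and 1.93 CPM with shCTL and at 3.07, 64.6 and 4.48 CPM with shZEB1.

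Metabolic and stress lists had medians between -0.33 and -0.02. Hypoxia and glycolysis genes (23 tested, 17 below 0) had a median of -0.25, and Ero1l, an oxidase that forms disulphide bonds in the endoplasmic reticulum, stood at 110, 153 and 131 CPM against 43.0, 11.7 and 35.2 CPM (log2 change -2.09, SE 0.56, edgeR adjusted p = 0.692). Cholesterol and fatty acid synthesis genes (23 tested, 15 below 0) had a median of -0.33, with Insig1 and Sc5d lower without overlap, at log2 changes of -1.74 and -1.54. The unfolded protein and integrated stress list (25 tested) had a median of -0.29, p53 targets (15 tested) of -0.19, NRF2 and metallothionein genes (19 tested) of -0.13 and nuclear subunits of oxidative phosphorylation (30 tested) of -0.02. Immediate early genes (27 tested, 19 below 0) had a median of -0.29 with members on both sides: Egr2 lay higher (2.37, SE 0.78) and Ier3, Nr4a2 and Fos lower (-0.999, -1.37 and -0.64), all without overlap. Cell cycle genes (20 tested, 14 below 0) had a median of -0.44, yet the mitotic kinase gene Plk1 lay higher without overlap (38.6, 58.7 and 40.4 CPM against 8.88, 11.8 and 9.67 CPM), as did Cenpf. MHC class I genes (7 tested) had a median of -0.34, with Erap1, a peptide-trimming protease, lower without overlap (-1.88, SE 0.83). Over all genes tested, 6.18% lay higher and 5.49% lower without overlap.

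The rest of the 12 genes with the smallest p in each direction, among those above 20 CPM in a group, belonged to none of the lists. Lower with shZEB1 were Pcsk7, Eri2, Lrrc24, Polr3e, Naglu, Ptdss2, Atp7a and Ppp1r13b, with log2 changes from -3.66 to -1.98. Naglu, a lysosomal enzyme that degrades heparan sulphate, stood at 38.3, 56.7 and 31.9 CPM against 7.46, 2.93 and 6.41 CPM, and Atp7a, a copper transporter, at 146, 201 and 61.9 CPM against 44.3, 32.3 and 26.3 CPM. Higher were Syn3, Slc25a45, Ptrhd1, Tango2, Ulbp1, Sh3bgrl3, Med23 and Trappc11, with log2 changes from 2.11 to 5.25. Ulbp1, a ligand of the NKG2D receptor of natural killer cells, stood at 2.05, 2.36 and 1.93 CPM against 49.2, 8.80 and 28.8 CPM. DESeq2 called Slc25a45, Tango2, Ptrhd1, Ulbp1, Syn3, Eri2 and Pcsk7 among them. Exons of Ptrhd1, Sh3bgrl3, Eri2 and Lrrc24, like those of Syn3 and Pcsk7, overlap exons of genes on the opposite strand. Without the strand setting, reads of those stretches cannot be assigned.

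The other tables, which share no library with these 6, show how the same genes differ in CAFs with unmodified 344SQ cells. Across the Boyden membrane, 4 of the 12 named lower genes were called higher with 344SQ than in CAFs alone and 0 lower, where 7.43% of 14040 genes were called higher and 7.44% lower. They were Lcn2 (log2 change 7.97, 0.0750 ± 0.112 CPM alone and 24.3 ± 1.93 CPM with 344SQ, SD, n = 5 each), Mmp13 (3.22), Mmp10 (2.90) and Ero1l (0.55). Of the 12 named higher genes 4 were called lower there and 0 higher: Figf (-1.19), Acta2 (-0.51), Syn3 (-0.45) and Cemip (-0.19). Over all 34 named genes that lay lower without overlap, 16 were called higher there and 3 lower, Cxcl1 (3.73), Cp (2.89), Vcam1 (1.09), Icam1 (0.66) and Nfkbiz (0.43) among the 16. Over all 31 named genes that lay higher without overlap, 9 were called lower there and 1 higher, Timp3 (-0.86) and Cxcl12 (-0.23) among the 9. Syn3 and Timp3, whose reads cannot be told apart, were both counted among the 9. Saa3, whose groups overlapped with shZEB1, had a log2 change of 5.32 in Boyden chambers. These genes were named by their shRNA values, many of them from lists drawn with earlier results of these data known. The counts therefore describe the named genes and not all genes.

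In aggregates the match was partial. Cemip (-2.70), Figf (-2.35) and Cxcl12 (-2.48) were called lower with 344SQ than in CAFs alone, opposite to their higher level with shZEB1, and Ptgs2 (1.43) was called higher. Tnc went the same way in both, called higher with 344SQ (1.71) and higher in level with shZEB1. Acta2 (-0.64) was not called against CAFs alone and was called lower with 344SQ than with 393P (-2.05), whereas Cemip was called higher with 344SQ than with 393P (1.41). Of the 12 named lower genes 7 were tested in aggregates, and 0 were called against CAFs alone by edgeR. Lcn2, Mmp13 and Mmp10, and also Icam1 and Saa3, were not tested there, so only their Boyden values could be compared. Cxcl1 (0.84), Nfkbiz (0.17), Vcam1 (-0.39) and Cp (-0.27) were tested and not called against CAFs alone. Over all 34 named lower genes without overlap, 25 were tested in aggregates, 2 called higher and 0 lower.

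Over whole lists of genes called in the other tables the median differences were small. Of the 633 tested genes called higher with 344SQ in Boyden chambers, 64.5% had a log2 change below 0 with shZEB1 and the median was -0.26. Groups did not overlap for 54 lower (8.53%) and 39 higher (6.16%). Of the 779 tested genes called lower there, 59.1% were above 0 and the median was 0.20, with 82 higher (10.5%) and 27 lower (3.47%) without overlap. Restricted to a log2 change of at least 1 in the Boyden table, the median of 55 higher genes was -0.77 but that of 17 lower genes was -0.14, so the lower genes did not keep their side. Both medians depended on libraries: without shCTL replicates 1 and 2 they were -0.04 and 0.82, where the median of all genes was 0.26.

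Lists from the aggregate table gave medians on either side of 0. For those higher (249 tested) or lower (162 tested) with 344SQ than in CAFs alone, where 3.48% and 2.36% of 7992 genes were called, the medians were -0.03 and -0.04. For 344SQ against 393P, where 2.21% and 1.94% were called, the medians were -0.12 over 153 genes (56.2% below 0) and 0.22 over 148 genes (63.5% above 0). Single libraries turned both: the first was 0.06 without shCTL replicate 1 and 0.11 without shCTL replicate 2, and the second was -0.02 without shZEB1 replicate 1. The first was also 0.13 with the carcinoma covariate and -0.47 without the 3 carcinoma-rich libraries. Taken gene by gene (genes are no replicates of a condition), the log2 change with shZEB1 correlated with that of 344SQ against CAFs alone at r = -0.16 in Boyden chambers (rho = -0.14, 7603 genes) and at r = -0.03 in aggregates (rho = -0.03, 6903 genes).

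**Figure D4:**
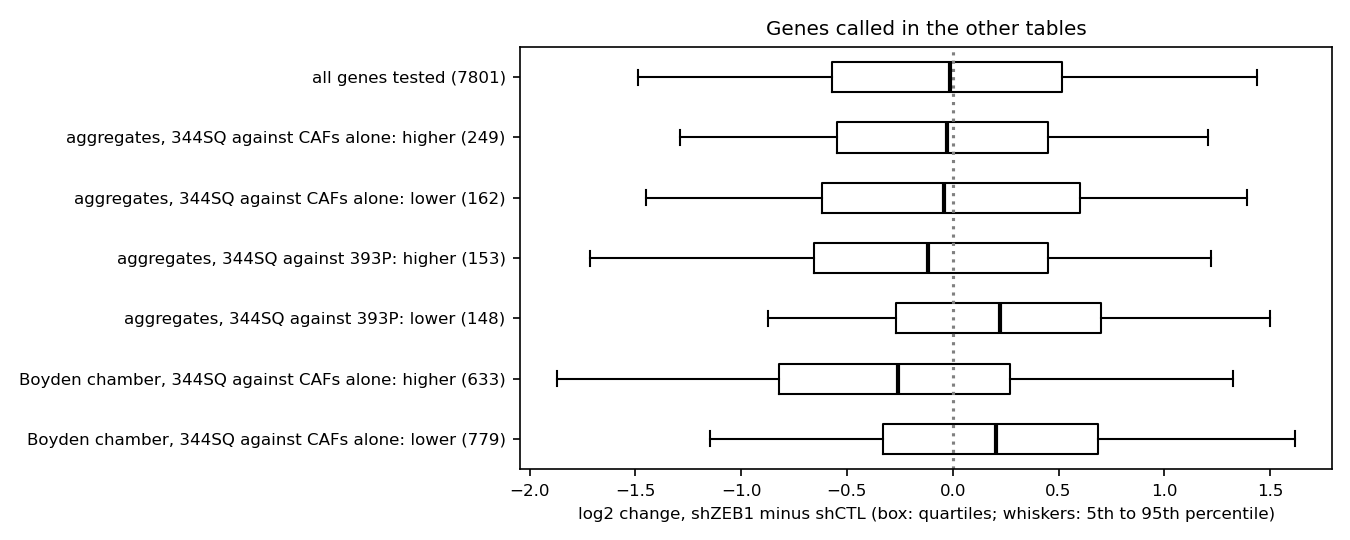
Boxes give the log2 change of shZEB1 minus shCTL (horizontal axis) for all 7801 genes tested and for genes called higher or lower in the other tables, with the quartiles as the box, the 5th and 95th percentiles as whiskers and the median as a line. The genes higher with 344SQ in Boyden chambers have a median of -0.26 and those lower a median of 0.20, and all boxes span 0.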

How the data were processed

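RNA was measured by sequencing in sorted CAFs. The authors aligned reads with STAR and counted them per gene with HTSeq on mm10, per the submitters' processing notes; tool versions, gene annotation and strand setting: not given in the sources used here. The deposited values are raw read counts per gene, and all columns could be mapped to samples.

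The 6 shRNA libraries (739530 to 2144803 counts) were tested with edgeR 4.0.16 (filterByExpr, TMM, quasi-likelihood test, 2-sided, Benjamini-Hochberg over 7801 genes, R 4.3.3) and no covariate. An exact permutation test of 3 against 3 cannot go below p = 0.1. Levels are CPM scaled by TMM for genes and by library total for marker sums. The 9 aggregate libraries and 15 Boyden sums (3 technical libraries each) were fitted separately by the same test. The fit was tested on simulated data. Coordinates are from GENCODE M21 (GRCm38); promoters are RefSeq's.

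Named genes are Zeb1, Zeb2, Acta2, Il6, Col1a1, Epcam and Cdh1; the 12 higher and 12 lower genes of smallest p whose groups do not overlap and whose higher mean is at least 20 CPM; and of each of 37 lists (29 pathways, 8 cell types) up to 4 non-overlapping members by p, or otherwise the 2 highest. Of 734 non-overlapping genes at that level, 43 are predicted genes and were not named. Some genes that the rule picks are not reported here. A few more members were named after their values were seen, as contrasts within a list. Members and lists were chosen with earlier results of these data known. Alternatives were other scalings, filters and tests (DESeq2 1.42.0; limma 3.58.1), covariates, a replicate block, each library left out and, added after seeing the data, 2 sets of libraries left out.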

Additional observations from a re-analysis of the deposited data

How the results depend on the processing

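The count of genes called was 0 with RLE or upper-quartile scaling, robust empirical Bayes, mitochondrial and rRNA-like genes removed, the carcinoma covariate, and without each library in turn. It was 90 with no filter on low counts (30 of them among the 7801 genes), 27 with DESeq2, 1 with limma-voom, 11 with the mitochondrial share as a covariate, 86 without the 3 carcinoma-rich libraries and 2 without shCTL replicates 1 and 2; in the fit of 86, the single shZEB1 library is assumed to vary like the 2 shCTL libraries, and 12 named genes were called, among them Lcn2, Mmp13, Mmp10, Cemip and Tnc. With the replicate block, 1 gene was called, Mmp13. Same-numbered libraries deviated together at correlations of 0.13, -0.03 and 0.06. Pairing by number was thus not evident, but 3 libraries per group cannot exclude it and the labels do not state it.

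For genes of the aggregate table against CAFs alone, the higher list's median was 0.64 with the mitochondrial covariate and 0.85 without shCTL replicates 1 and 2; the lower list's was 0.37 and 0.61, 0.13 with the carcinoma covariate, and -0.029 to 0.13 with 1 library left out. Against 393P, the same 2 settings gave 0.42 and 0.73 for the higher and 0.57 and 0.72 for the lower list. For the Boyden list of higher genes they gave -0.16 and -0.042, the carcinoma covariate -0.15, a log2 change of at least 1 there -0.77, and leaving out 1 library -0.31 to -0.14. For the Boyden list of lower genes they gave 0.63 and 0.82, the carcinoma covariate 0.33, the 3 carcinoma-rich libraries left out 0.089 and a log2 change of at least 1 there -0.14. The causes were not tested.

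Of 24 genes followed, 22 kept their direction under every alternative run. The exceptions were Saa3 (0.25 without shCTL replicates 1 and 2) and Cdh1 (1.26 with limma-voom, and -2.14 to 3.62 with 1 library left out). Most named genes were picked because their groups do not overlap, which favours a kept direction, so the 22 are no test of it. Prrx1, Zeb2 and C3, whose groups overlapped, also turned from below to above 0. They were at 1.25, 0.85 and 0.41 with the mitochondrial covariate, and at 1.71, 1.06 and 0.60 without shCTL replicates 1 and 2. Depth of 739530 to 2144803 counts and the spread between replicates limit what small differences could be shown.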

Other observations

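DESeq2 also called 12 genes that the edgeR filter had left out, and these few were picked after their values were seen. Serpinb2, an inhibitor of urokinase, had 25, 93 and 3 counts in the shCTL libraries and 3, 1 and 1 in the shZEB1 libraries (DESeq2 adjusted p = 0.0372). Tlr2, a receptor for bacterial lipoproteins, had 42, 9 and 33 counts against 3, 0 and 1 (DESeq2 adjusted p = 0.0407). For Tlr2 every shZEB1 library lay below every shCTL library by count; for Serpinb2 shCTL replicate 3 equalled shZEB1 replicate 1. Cacna1h, a calcium channel subunit, had 2, 1 and 3 counts against 11, 96 and 80 (DESeq2 adjusted p = 0.00216). Il18rap, a receptor subunit of interleukin-18, had 86 of its shCTL counts in replicate 3, a library rich in carcinoma markers, and 5 and 3 in the others.

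Flt1, a VEGF receptor gene, had 2259 counts in shZEB1 replicate 1 and 83 to 330 in the other 5 libraries, while the endothelial genes Pecam1, Cdh5, Tek, Vwf, Emcn, Cldn5 and Egfl7 had at most 14 counts in any library.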
